A study of Mus musculus with 6 samples.

Results

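The chromatin of 9 genes that encode proteins of the secondary and tertiary granules of neutrophils was examined by ATAC-seq in murine leukemia stem cells (LSCs) treated with mycophenolate mofetil (MMF). The genes were Ltf, Camp, Ngp, Lcn2, Mmp8, Mmp9, Cd177, Lyz1 and Lyz2, and their regions were all peaks that overlapped the gene body or the 20 kb on either side of it (mm10, GENCODE M21). Peaks of the 6 lists were merged into regions, and 66 of the 112852 regions met this rule. ATAC-seq marks open chromatin by where the transposase Tn5 inserts adapters. The cells were leukemic granulocyte-macrophage progenitors (L-GMP), the LSC-enriched fraction of acute myeloid leukemia driven by the MLL-AF9 fusion. They were labelled as AML LSCs from blood with genotype WT, and both groups shared the MLL-AF9 background. Cells were cultured with 20% FBS and 10 ng/ml mouse IL3. The MMF group of 3 samples was treated with MMF, for 24 h by the labels, and the control group of 3 samples was not. The study's text is not uniform on the dose and time of this treatment, so no dose is given. MMF inhibits inosine monophosphate dehydrogenase, a rate-limiting enzyme of guanine nucleotide synthesis. The labels do not say whether samples of a group came from separate mice or cultures, so a p-value here measures only the spread between these samples, which may be technical.

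Neutrophils fill their granules in sequence as they mature. Primary granule proteins such as myeloperoxidase and elastase are made by promyelocytes, secondary (specific) granule proteins such as lactoferrin by myelocytes, and tertiary (gelatinase) granule proteins later still. Late granule genes are therefore widely used as markers of granulocytic maturation beyond the progenitor stage, and C/EBP factors, above all C/EBPε, are known to drive them.

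Depth was set by the peak lists. They held 58496 to 63911 peaks in control and 80893 to 86556 in MMF samples on chromosomes 1 to 19, X and Y, and the median summit held 14 to 19 reads. For every peak the number of summit reads, a whole number, was solved from the deposited fold enrichment and p and divided by the background of the sample, the reads expected at an average position of the genome. This ratio, called summit reads per background below, is scaled to depth and takes no account of list length. The smallest ratio with which any list called a peak was 5.49 to 6.45, or 4 to 5 reads. Fold enrichment is taken over the local background, so the ratio needed for a call was higher where that background was high. For example, a peak 1189 bp upstream of Mmp9 with 13.7 in the first control sample had a percentile rank of 0.94 by fold enrichment. A list without a peak thus shows a signal under the local threshold and not closed chromatin. The label was checked by promoter peaks. Kit, Spi1 and Cebpa had one in all 6 lists, the T cell genes Cd3e, Cd3g and Cd4, the B cell genes Cd79a and Pax5, the NK cell gene Ncr1 and the erythroid gene Gata1 had none in any list, and Klf1, an erythroid gene, had one in all 6. The NK cell gene Klrb1c had a peak in 1 MMF list, and Epor in 2 control and 3 MMF lists. Among the other progenitor genes, Cd34 had a promoter peak in 3 control and 2 MMF lists, Fcgr3 in 1 and 3, Csf1r in 2 and 3, and Elane in 1 and 3, while Mpo had none in any list. In bulk samples, a few cells with wide open chromatin and many cells with slightly open chromatin cannot be told apart.

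The sequences below are the promoters on which the results turn, read from GRCm38 (mm10) in the direction of transcription. Those of Ltf, Camp, Ngp and Cd177 end just upstream of the transcription start. The peaks there were absent from 1 or more control lists at Ltf, Ngp and Cd177, and called in all 6 lists at Camp. Lyz1 and Lyz2, neighbouring copies of the lysozyme gene, are shown as a pair because a promoter peak was called at Lyz2 and not at Lyz1. Capitals mark a RUNX match, the only match to the searched motifs in these stretches.
Ltf, chr9:111019121-111019270, plus strand: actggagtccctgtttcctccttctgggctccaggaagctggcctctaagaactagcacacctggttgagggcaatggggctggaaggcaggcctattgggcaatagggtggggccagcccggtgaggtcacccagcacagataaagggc
Camp, chr9:109849618-109849706, minus strand: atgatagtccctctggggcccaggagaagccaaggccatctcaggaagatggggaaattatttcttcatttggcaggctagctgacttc
Ngp, chr9:110419597-110419746, plus strand: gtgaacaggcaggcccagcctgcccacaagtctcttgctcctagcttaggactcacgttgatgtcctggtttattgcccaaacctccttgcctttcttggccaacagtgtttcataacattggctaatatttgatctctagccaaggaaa
Cd177, chr7:24760312-24760461, minus strand: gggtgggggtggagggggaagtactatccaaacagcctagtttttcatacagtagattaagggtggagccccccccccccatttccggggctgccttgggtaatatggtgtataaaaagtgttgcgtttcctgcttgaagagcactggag
Lyz1, chr10:117292869-117293018, minus strand: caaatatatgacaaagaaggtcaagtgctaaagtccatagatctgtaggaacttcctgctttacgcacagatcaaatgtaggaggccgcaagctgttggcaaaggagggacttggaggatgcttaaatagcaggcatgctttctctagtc
Lyz2, chr10:117282322-117282471, minus strand: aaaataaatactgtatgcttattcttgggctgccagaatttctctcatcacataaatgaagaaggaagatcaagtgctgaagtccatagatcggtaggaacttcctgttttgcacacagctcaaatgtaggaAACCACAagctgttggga

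Away from promoters, the 100 bases at the centre of 4 regions are shown. All 4 hold a match to a searched motif. Most of the other distal regions described below held none in these 100 bases, so the 4 are not typical. The shares of regions with a match are given with the motif search. The regions upstream of Mmp8 and downstream of Mmp9 were called only in MMF samples, and those in introns of Ltf and Ngp were called in all 6 samples with higher summit reads in every MMF sample. Capitals mark a PU.1 match in the Mmp8 region and an AP-1 match in each of the other regions.
Mmp8 6276 bp upstream, chr9:7552130-7552229, plus strand: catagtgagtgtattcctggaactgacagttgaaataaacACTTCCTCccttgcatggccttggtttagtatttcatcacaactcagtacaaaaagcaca
Mmp9 24678 bp downstream, chr2:164972847-164972946, plus strand: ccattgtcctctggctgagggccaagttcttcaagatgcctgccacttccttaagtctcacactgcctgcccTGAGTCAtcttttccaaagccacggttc
Ltf 18170 bp downstream, chr9:111037412-111037511, plus strand: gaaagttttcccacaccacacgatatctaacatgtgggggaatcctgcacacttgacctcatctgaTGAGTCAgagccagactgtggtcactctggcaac
Ngp 2426 bp downstream, chr9:110422123-110422222, plus strand: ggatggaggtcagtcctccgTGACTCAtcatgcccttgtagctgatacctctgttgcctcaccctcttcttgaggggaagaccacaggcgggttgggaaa

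Most of the 66 regions lay away from gene starts. By position, 8 lay within 1000 bp of a start of their own gene, 9 within 1000 bp of a start of another protein-coding gene, and 49 at neither, called distal here. Per gene, the windows held 11 regions for Ltf, 6 for Camp, 8 for Ngp, 5 for Lcn2, 6 for Mmp8, 12 for Mmp9, 11 for Cd177, 7 for Lyz1 and 6 for Lyz2. All 6 regions of Lyz2 also lay in the window of Lyz1, so these genes do not count as separate loci. Camp, Ngp and Ltf lie in this order on chromosome 9 (gene bodies from 109847379 to 109849617, 110419747 to 110423012 and 111019271 to 111042767), and their windows do not overlap.

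**Figure D1:**
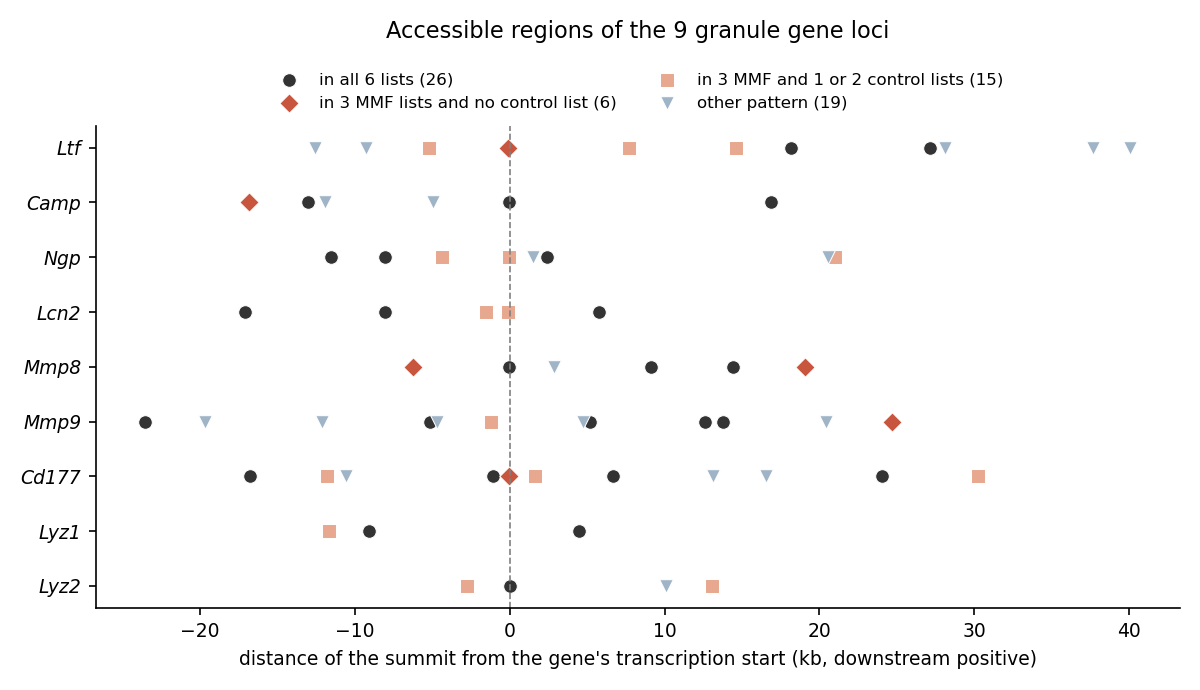
Position of the 66 regions of the 9 granule gene loci. The x axis gives the distance of the summit from the transcription start of the gene in kb and each row is a gene (a region in the windows of both lysozyme genes is drawn once). The 6 regions found only in the 3 MMF lists lie at the starts of Ltf and Cd177 and around Camp, Mmp8 and Mmp9.

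Regions of the granule genes were present in more MMF than control lists. Of the 66 regions, 26 had a peak in all 6 lists, and 6 were gained with MMF, that is, called in all 3 MMF lists and in no control list. A share of 9.09% was gained, where 6.0% of all regions were. None was lost, where 0.182% of all regions were. Another 13 regions were in all 3 MMF lists and 2 control lists, and 2 were in all 3 MMF lists and 1 control list. In the opposite direction, 6 regions were called only in control lists, 2 of them in 2 lists and 4 in 1 list. The shares of all regions with these partial patterns were not counted, so these counts are not read as particular to the granule genes. The MMF lists were longer throughout the genome. When the same number of peaks was taken from each list, none of the 54 regions left in these loci was gained or lost, while 2.35% of all regions were gained.

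Peaks in the 9 loci numbered 40, 42 and 35 in the control lists and 54, 55 and 51 with MMF, so every MMF list held more (14.3 more on average, two-sided exact permutation test, p = 0.1, which is as low as a p can go with 3 samples against 3). In proportion to list length the groups overlapped, with 6.34 ± 0.396 (SD, n = 3) peaks per 10000 in control and 6.31 ± 0.0723 (SD, n = 3) in MMF samples (two-sided exact permutation test, p = 0.9). With lists of equal length, the MMF lists held 5.67 more peaks in these loci on average, or 0.969 more per 10000 (two-sided exact permutation test, p = 0.1 for both). The excess in these loci was therefore smaller at equal list length but still present in every MMF list.

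**Figure D2:**
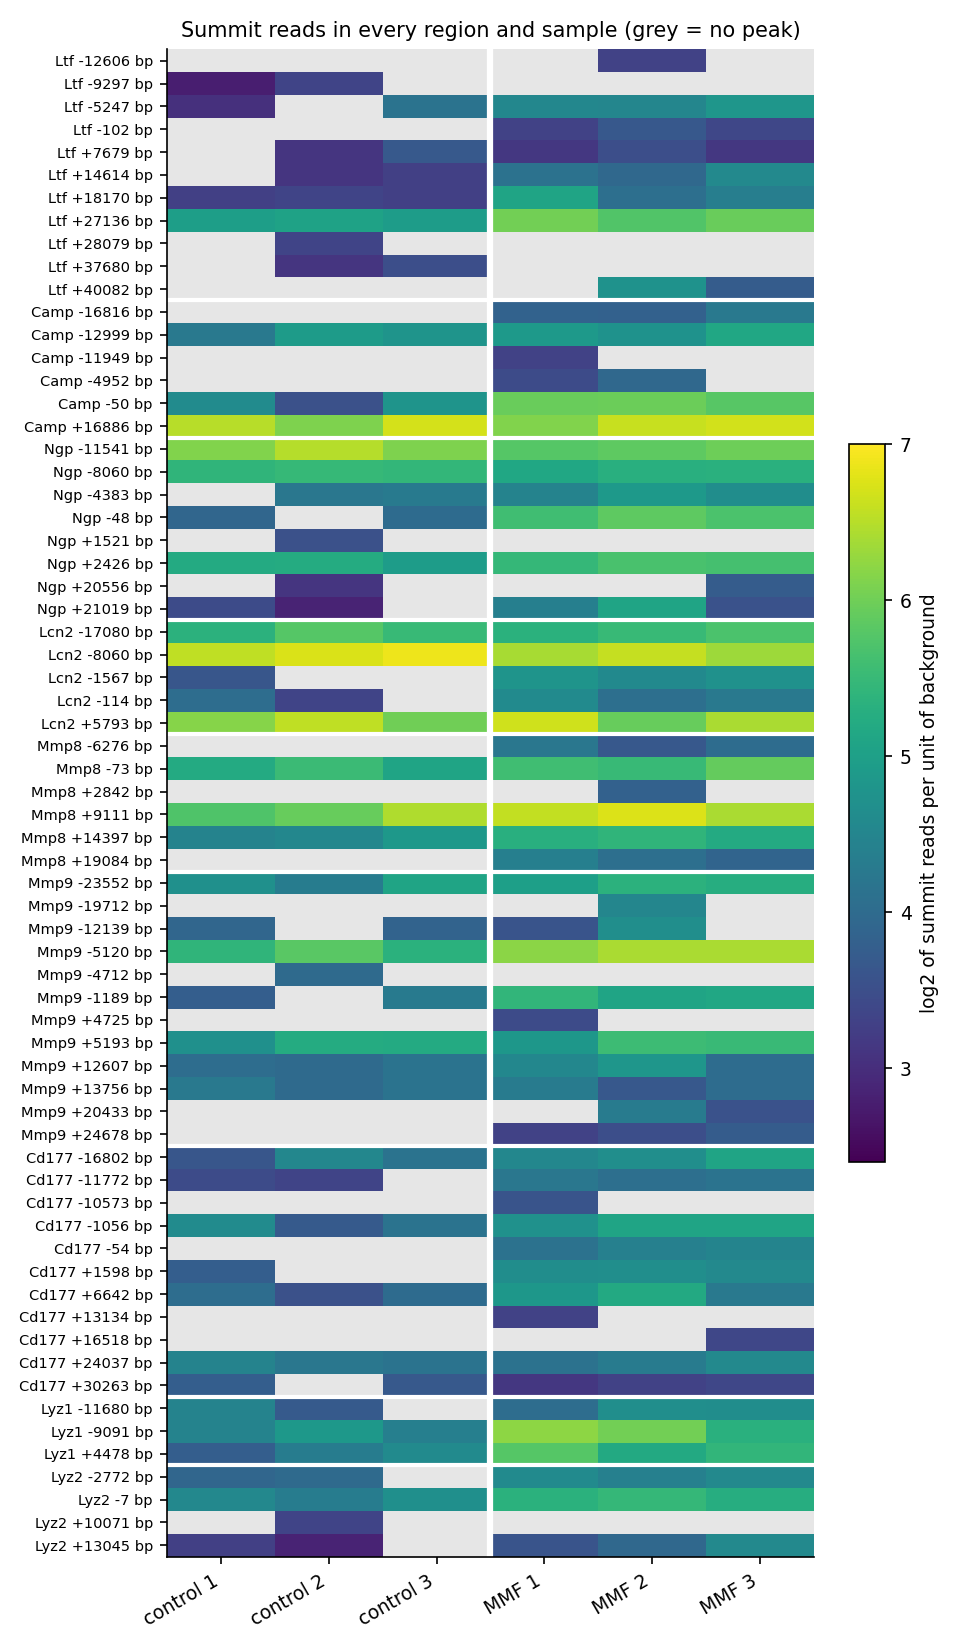
Summit reads per background of each of the 66 regions (rows, by gene and distance from its start in bp) in each of the 6 samples (columns), on a log2 colour scale. Grey marks a list with no peak in the region, which was more frequent in the control columns. The rows at the promoters of Camp and Ngp show brighter MMF columns.

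Lactoferrin, the iron-binding protein encoded by Ltf, is the defining protein of secondary granules. Its promoter was called open only with MMF. The region 102 bp upstream of the start (chr9:111019025-111019344) had no peak in the 3 control lists, and 9.90, 12.7 and 10.3 summit reads per background in the MMF samples. These are weak peaks, not far above the calling threshold. Away from the promoter, the strongest region of the locus lay 27136 bp downstream of the start, beyond the end of the gene (chr9:111046194-111046728). Its summit reads per background were 31.6, 33.3 and 30.6 in control and 64.9, 53.8 and 62.1 in MMF samples. Control samples were tightly grouped, and every MMF sample lay above them (1.89-fold). A weaker region in an intron, 18170 bp downstream of the start (chr9:111037358-111037882), is named because its AP-1 match is shown above, after its values were seen. It had 9.60, 10.1 and 9.67 in control and 34.1, 17.0 and 20.7 in MMF samples, again without overlap (2.44-fold).

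Camp encodes the cathelicidin antimicrobial peptide precursor, stored in secondary granules. The region at its promoter (chr9:109849325-109849851, summit 50 bp upstream) showed the largest ratio between the groups among the 26 regions found in all 6 lists. Summit reads per background were 24.7, 11.6 and 27.4 in control and 61.6, 62.3 and 56.2 in MMF samples (21.2 ± 8.47 against 60.0 ± 3.36, SD, n = 3, 2.83-fold). All MMF samples exceeded the highest control sample, and the second control sample was the lowest (two-sided exact permutation test, p = 0.1). A region 16816 bp upstream (chr9:109866328-109866616) was gained, with 14.3, 14.2 and 19.2 in MMF samples. The strongest distal region, 12999 bp upstream, had 19.2, 30.4 and 27.4 in control and 29.7, 26.9 and 35.5 in MMF samples, and there the groups overlapped. In the Camp locus, summit reads without overlap between the groups were thus measured at the promoter and not at its strongest distal region. The gained region has no control value, so no size of change can be given there.

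Ngp encodes neutrophilic granule protein, a cystatin-related protein of the secondary granules of mice. At its promoter (chr9:110419538-110419907, summit 48 bp upstream) the control samples had 15.1 summit reads per background, no peak, and 16.1. The MMF samples had 48.4, 58.1 and 51.7. Each MMF sample was well above both control peaks, but since 1 control list held no peak there, no fold and no test are given. Its strongest distal region, in an intron 2426 bp downstream of the start (chr9:110421829-110422337), had 37.0, 37.6 and 30.6 in control and 44.0, 51.0 and 50.3 in MMF samples (1.38-fold, no overlap). On the rank scale used below its direction was the opposite, a difference of -0.60 score units in MMF samples. Both regions with lower summit reads in every MMF sample also lay in the Ngp window, and are named after their values were seen. One was at the start of the neighbouring gene Ptpn23, 11541 bp upstream of Ngp, with 70.0, 89.7 and 69.3 in control and 55.0, 58.1 and 63.6 in MMF samples (0.77-fold). The other, 8060 bp upstream, had 42.5, 44.8 and 43.5 in control and 35.2, 39.7 and 39.9 in MMF samples (0.88-fold).

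Lcn2 encodes lipocalin 2, a siderophore-binding protein of secondary granules. The promoter region of the gene (chr2:32387704-32388077, summit 114 bp upstream) had 16.5 and 10.1 summit reads per background in the first pair of control samples and no peak in the third, and 24.2, 17.0 and 19.2 with MMF. The gap between the highest control and the lowest MMF sample was small. The strongest distal region lay 17080 bp upstream in an exon of Ptges2, with 41.2, 55.0 and 45.1 in control and 40.7, 45.3 and 51.7 in MMF samples. There the groups overlapped, with nearly equal means (0.98-fold).

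The matrix metalloproteinase Mmp8, or neutrophil collagenase, is stored in secondary granules, and Mmp9, or gelatinase B, is the defining enzyme of tertiary granules. The Mmp8 promoter (chr9:7558091-7558569, summit 73 bp upstream) was the most open promoter among the 9 genes in control samples. It had 37.0, 46.3 and 33.9 summit reads per background in control and 48.4, 45.3 and 60.6 in MMF samples, and the groups overlapped (1.32-fold, two-sided exact permutation test, p = 0.2). The strongest distal region, in an exon 9111 bp downstream of the start, had 53.5, 60.7 and 87.1 in control and 95.7, 108 and 85.7 in MMF samples, which also overlapped. Differences were also seen at weaker regions around the gene. One region 6276 bp upstream was gained (18.7, 12.7 and 16.3 in MMF samples), as was one 19084 bp downstream in an intron of the neighbouring gene Mmp27 (20.9, 17.0 and 14.8). Neither has a control value, so overlap cannot be judged there. Another, also in an intron of Mmp27, lay 14397 bp downstream and is named after its values were seen. It had 22.0, 23.1 and 29.0 in control and 39.6, 42.5 and 37.0 in MMF samples (1.61-fold, no overlap).

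At Mmp9 no peak within 1000 bp of the start was called in any list. The nearest region, 1189 bp upstream of the start and named after its values were seen, had 13.7 in the first control sample, no peak in the second and 19.3 in the third, and 42.9, 34.0 and 35.5 in the MMF samples. Its strongest distal region, 5120 bp upstream in an intron of a longer Mmp9 gene model (chr2:164942660-164943248), had 42.5, 56.4 and 40.3 in control and 73.7, 85.0 and 85.7 in MMF samples. No control sample reached the MMF range (1.76-fold). A region 24678 bp downstream of the start, in an intron of Slc12a5, was gained (9.90, 11.3 and 13.3).

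Cd177 encodes a glycoprotein of the neutrophil surface and of the secondary granule membrane. At its start, 54 bp upstream (chr7:24760141-24760502), a region was gained with 17.6, 21.2 and 22.2 summit reads per background in MMF samples. A second region within 1000 bp of the start, with its summit 1056 bp upstream, was present in all lists, with 24.7, 13.0 and 17.7 in control and 26.4, 34.0 and 34.0 in MMF samples (1.70-fold, two-sided exact permutation test, p = 0.1). The gap between the highest control and the lowest MMF sample was narrow, and by percentile rank within the list the groups overlapped (63.8, 25.5 and 45.0 in control, 46.3, 59.6 and 59.8 in MMF samples). Among distal regions the strongest, in an intron 6642 bp downstream, had 16.5, 11.6 and 16.1 in control and 28.6, 36.8 and 19.2 in MMF samples (1.92-fold, no overlap).

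Lysozyme, which cleaves bacterial cell walls, is made from early granulocyte stages on and is found in all granule types. In mice it is encoded by Lyz2, the myeloid form, and Lyz1, the form of Paneth cells. The Lyz2 promoter (chr10:117282015-117282480, summit 7 bp upstream) had 23.3, 20.2 and 25.8 summit reads per background in control and 40.7, 43.9 and 38.4 in MMF samples. Both groups were tight and well apart (23.1 ± 2.78 against 41.0 ± 2.75, SD, n = 3, 1.77-fold, two-sided exact permutation test, p = 0.1). No peak within 1000 bp of the Lyz1 start was called in any list. The promoter windows of the genes, 250 bases before to 50 bases after the start in RefSeq on GRCm38, were identical in 249 of 302 aligned columns (82.5%). Of the 431 words of 36 bases in the Lyz2 promoter region, 56 also occurred within 1000 bp of the Lyz1 start, so some reads may not be assigned to one gene, and their part in the result was not tested. Of the distal regions in both windows, the strongest, between genes 9091 bp upstream of Lyz1 (chr10:117301528-117302187), had 22.0, 28.9 and 21.0 in control and 74.8, 65.2 and 39.9 in MMF samples (2.50-fold). A region in an exon of Lyz1, 4478 bp downstream of the start and named after its values were seen, had 13.7, 20.2 and 24.2 in control and 55.0, 36.8 and 42.9 in MMF samples (2.32-fold). Neither region overlapped between the groups, although the MMF samples were widely spread.

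**Figure D3:**
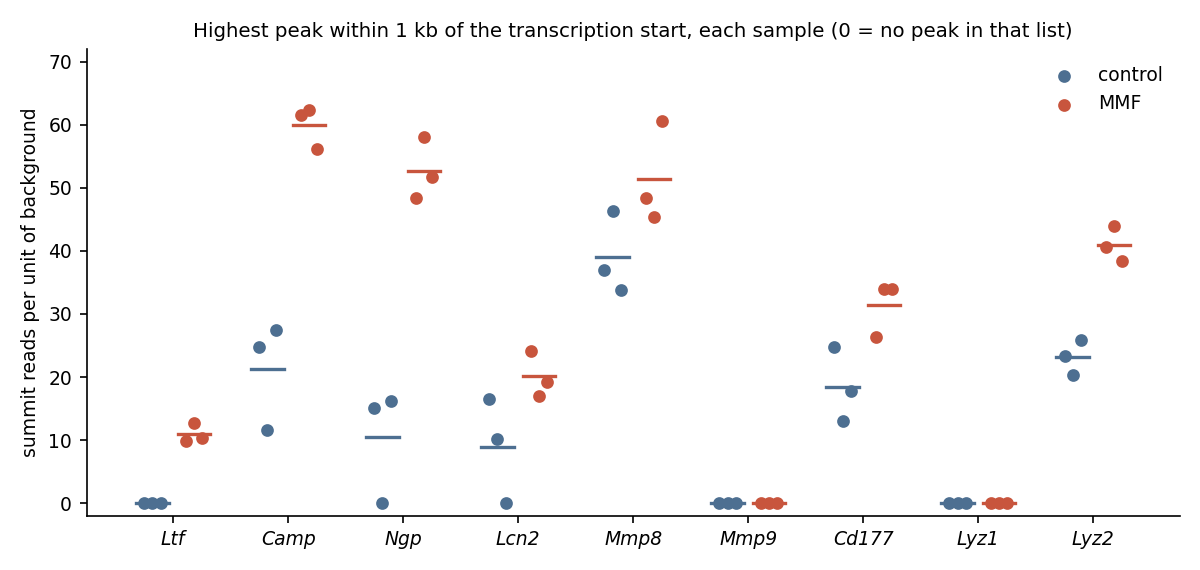
Summit reads per background of the highest peak within 1000 bp of a transcription start for each of the 9 genes. Points are samples, bars are group means (n = 3), and 0 marks a list with no peak there. The MMF samples of Camp, Cd177 and Lyz2 all lie above the control samples, those of Mmp8 overlap with control, and Mmp9 and Lyz1 have no promoter peak. Those of Ngp and Lcn2 lie above the control peaks that were called. At Ltf all control points are 0, so no control value was measured.

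Of the 4 genes whose promoter peak was in all 6 lists, 3 (Camp, Cd177 and Lyz2) had all MMF samples above the control samples, and at Mmp8 the groups overlapped. Promoters in general went the other way. Among all protein-coding genes with a promoter peak in all 6 lists, every MMF sample was above control for 6.20% and below for 17.8%, and the median log2 ratio of MMF to control was -0.0995.

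Of the 26 regions shared by all 6 lists, 11 (42.3%) had higher summit reads in every MMF sample than in any control sample, where 29.1% of all such regions did. The 3 shared regions in the windows of Lyz1 and Lyz2 were all among the 11. In 2 of the 26 (7.69%) every MMF sample was lower, where 7.67% of all were. The higher regions lay at promoters of the granule genes or away from any start. None of the 7 shared regions at starts of other genes was higher in every MMF sample, while 8 of the 15 distal regions were, and 1 distal region was lower. At promoters in general, 7.64% of shared regions were higher and 16.7% lower in every MMF sample. None of 7 is close to that share and shows no contrast by itself. Away from promoters in general, 37.5% of shared regions were higher and 4.16% lower in every MMF sample. Distal regions at large therefore moved with MMF as well, and the share at the granule genes (53.3%) is read against that.

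The median log2 difference in summit reads between MMF and control was 0.48 over the 26 regions and 0.16 over all shared regions. By position it was 0.82 at the 4 promoters of the granule genes, 0.55 at the 15 distal regions and 0.04 at the 7 starts of other genes. The medians over all shared regions were 0.32 away from promoters and -0.09 at promoters. The scale matters for these directions. When summit reads were divided by the median of the shared regions of the sample instead of the background, 8 of the 26 regions (30.8%) were higher and 5 (19.2%) lower in every MMF sample, while 12.4% of all shared regions were higher and 31.1% lower. On that scale the promoters of Camp and Lyz2 still stood above control in every MMF sample, and that of Cd177 overlapped.

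**Figure D4:**
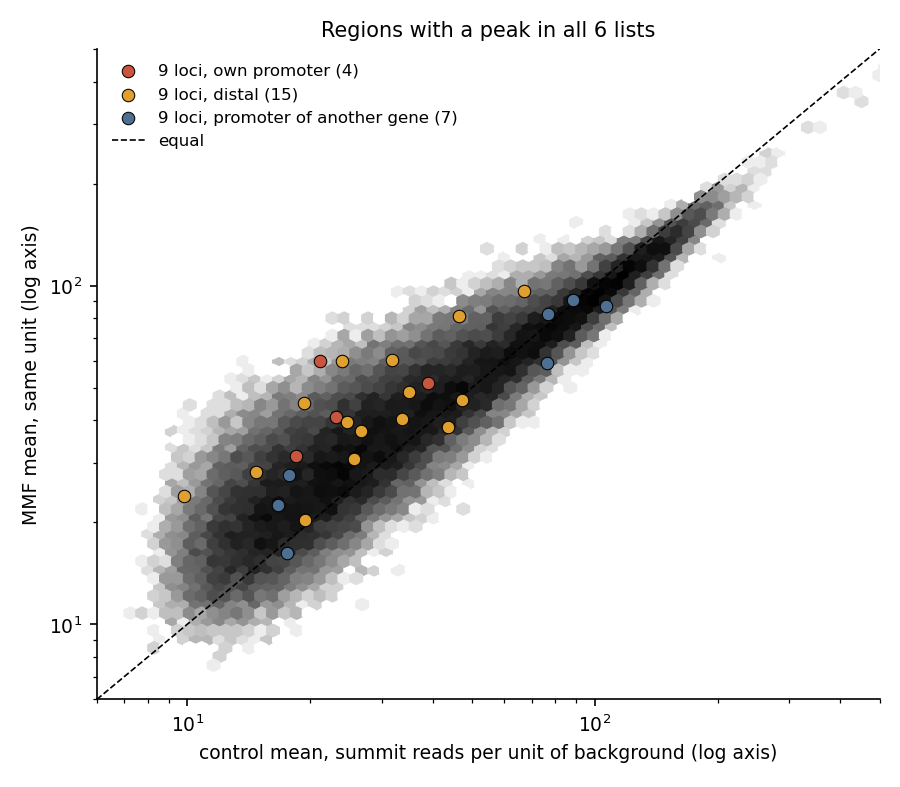
Mean summit reads per background in MMF (y axis) against control samples (x axis), both on log axes, for regions with a peak in all 6 lists. Grey shading gives the density of all 41182 such regions, and coloured points are the 26 regions of the 9 loci by position. The 4 points at promoters of the granule genes lie above the line of equal values, as do 13 of the 15 distal points.

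Ranks by fold enrichment were compared by limma over all 41182 shared regions, on normal scores of the rank among these regions in each sample. Such scores show shifts of a region relative to the other regions, not a change of all of them. At a Benjamini-Hochberg adjusted p of 0.05, 0 of the 26 regions were called higher and 0 lower, where 1.44% of all shared regions were called higher and 0.425% lower. At an unadjusted p of 0.05, limma counted 6 of the 26 higher (23.1%) and 3 lower (11.5%), where 12.0% and 11.2% of all were. In lists of equal length the counts were 6 of 25 higher (24.0%) and 4 lower (16.0%), where 12.7% and 12.6% of all were. The smallest adjusted limma p belonged to the region downstream of Ltf, 27136 bp from its start (score difference 0.78 ± 0.26 SE, adjusted p = 0.131), followed by the Camp promoter (1.25 ± 0.43 SE, adjusted p = 0.139). With log2 summit reads per background in the same limma fit, 10 of the 26 regions were called higher (38.5%) and 0 lower, where 18.6% of all shared regions were called higher and 0.969% lower. These were the promoters of Camp (log2 difference 1.59 ± 0.29 SE, adjusted p = 0.00546), Lyz2 and Cd177, and distal regions of Ltf, Mmp8, Mmp9, Cd177 and Lyz1. The call thus depended on the measure. The fits differed in scale, ranks against depth-scaled reads. They also differed in background, since fold enrichment is taken over the local background and summit reads over that of the sample. Which of these changed the calls was not tested.

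Other late neutrophil and granule genes were read in the same way. Of 11 such genes, Orm1 (2.45-fold), Pglyrp1 (1.55-fold) and Adam8 (1.43-fold) had every MMF sample above control at the promoter. Orm1 encodes the acute phase protein orosomucoid 1, Pglyrp1 a peptidoglycan recognition protein of granules, and Adam8 a membrane metalloproteinase of granulocytes. At Hp, Slpi and Padi4 the groups overlapped. Mmp25 had a promoter peak in 2 control lists and in no MMF list, and Chil3, Olfm4, Ptx3 and Itgb2l had none in any list. Their windows held 82 regions, 5 of them gained (6.10%) and 0 lost, where 6.0% of all regions were gained. Of their 37 shared regions, 15 were higher in every MMF sample (40.5%) and 3 lower (8.11%). Among all shared regions 29.1% were higher and 7.67% lower, and away from promoters 37.5% were higher. On ranks, limma at an unadjusted p of 0.05 counted 4 of the 37 higher (10.8%) and 6 lower (16.2%), where 12.0% and 11.2% of all were.

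Primary granule genes were compared as the stage that precedes the secondary granules. The windows of Mpo, Elane, Prtn3 and Ctsg held 28 regions, 1 of them gained (3.57%, all regions 6.0%). The windows of Elane and Prtn3 share regions, so these genes do not count as separate loci. Of the 16 shared regions in the primary granule gene windows, 8 were higher (50%) and 2 lower in every MMF sample. Among all shared regions 29.1% were higher and 7.67% lower, and away from promoters 37.5% were higher. The median log2 difference of the 16 was 0.41, against 0.48 at the 9 genes described above. That 0.48 includes the 3 shared regions of the lysozyme windows (median 1.23), and lysozyme is found in all granule types. The median without them was not computed. Ctsg, cathepsin G, had every MMF sample above control at its promoter (1.42-fold). Elane, neutrophil elastase, had a promoter peak in 1 control and 3 MMF lists, and Mpo and Prtn3 had none in any list. On ranks, limma at an unadjusted p of 0.05 counted 2 of the 16 regions higher (12.5%) and 1 lower (6.25%), where 12.0% and 11.2% of all were. On log2 summit reads, 3 were called higher (18.8%) at an adjusted p of 0.05, where 18.6% of all were. The difference between the primary granule genes and the 9 genes was not tested, and higher summit reads were found in both.

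**Figure D5:**
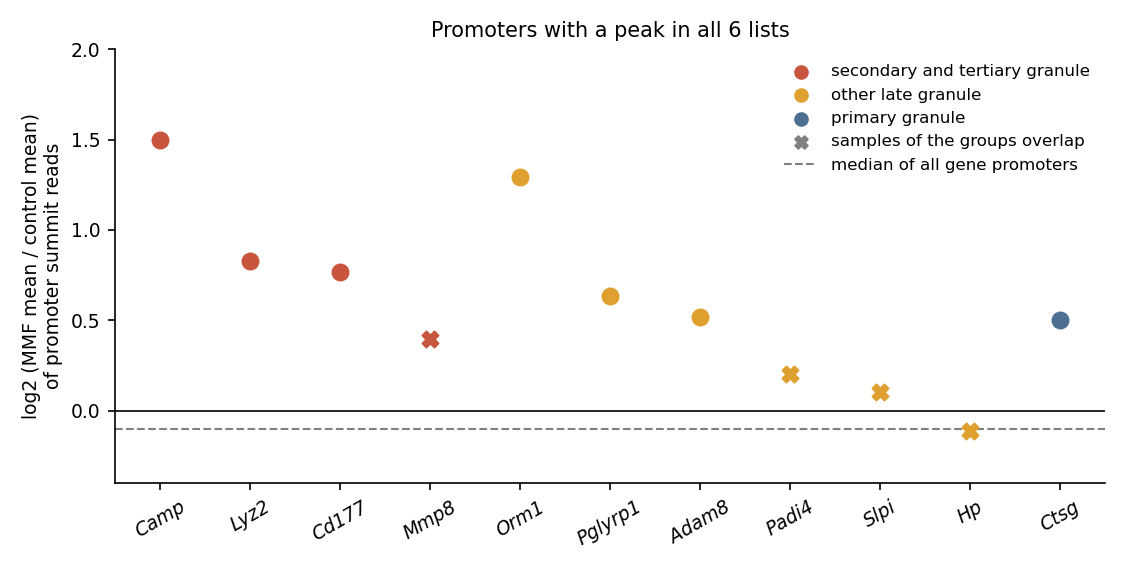
Log2 ratio of the mean promoter summit reads of MMF to control samples for genes of the 3 lists with a promoter peak in all 6 lists. Circles mark genes whose groups do not overlap and crosses those whose groups do, and the dashed line is the median of all gene promoters (-0.0995). Camp has the highest ratio, followed by Orm1.

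Fixed motifs were searched in the 200 bp around each summit, on both strands. They were TTGCGCAA, TTGCACAA and TTGCATCA for C/EBP, GAGGAAGT for PU.1, AACCACA for RUNX, and TGAGTCA for AP-1, each with its reverse complement. None of these contains another. A C/EBP match was found in 2 of the 66 regions (3.03%), where 4.22% of all regions held one. PU.1 letters were found in 7 regions (10.6%), where 8.28% of all regions held them. RUNX was found in 4 (6.06%, all regions 10.7%) and AP-1 in 5 (7.58%, all regions 13.2%). One C/EBP match was in the region in an exon of Lyz1, 24 bp from the summit. The region upstream of Mmp8 held PU.1 close to its summit, and the Ltf region 27136 bp downstream held PU.1 letters at 2 positions, 77 and 57 bp before the summit. In the RefSeq promoter windows of 300 bases on GRCm38, given for 8 of the 9 genes, C/EBP and AP-1 were found in none (all windows 2.08% and 5.20%), PU.1 in that of Mmp8 (3.20%) and RUNX in that of Lyz2 (5.27%). These counts describe letters in windows and say nothing of binding.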

How the data were processed

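ATAC-seq was carried out by the authors on 3 control and 3 MMF-treated L-GMP samples. Per the labels, reads were handled with FastQC and Trim Galore, mapped to mm10 with Bowtie2, and peaks were called with MACS2 on each sample. Versions and options are not given in the sources used here. The deposited lists hold for each peak a fold enrichment (a ratio of reads over the summit plus 1 to the local background plus 1) and −log10 p and −log10 q values. A deposited score column was not used.

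Peaks on chromosomes 1 to 19, X and Y were merged over the lists into regions, and 1 bp of overlap counted as presence. Whole summit reads came out in 100% of peaks. PCR duplicates cannot be seen, and intervals for single values were not computed since the spread between samples was used. For shared regions, limma 3.58.1 (lmFit and eBayes, no block, R 4.3.3) was fitted, adjusted over all 41182 regions, and single values with an exact permutation test (scipy 1.17.1, Python 3.11.15). Sequences were read with pysam 0.24.0. The steps were tested on simulated data. Replicate numbers were not treated as pairs.

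All 9 genes were described, with the regions at their starts, the strongest region away from any start, and every region gained, lost or called. Others are said to have been named after their values were seen. The genes, lists and tests were chosen with earlier results of these data known. The score difference and log2 difference are MMF minus control. Alternatives covered list length, threshold, overlap, flank, measure, promoter width, the replicate block and each sample left out.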

Additional observations from a re-analysis of the deposited data

How the results depend on the processing

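Gained regions numbered 6 and became 0 at equal list length and 11 with a flank of 50 kb, and they ranged from 6 to 8 with 1 sample left out. Lost regions ranged from 0 to 1, with 1 when control replicate 1 or 3 was left out. Leaving out a sample can only keep or raise the counts of gained and lost regions, so these ranges do not show stability. With limma on ranks, leaving out 1 sample gave 0 calls in both directions, and so did the replicate block, with 0 higher and 0 lower. Log2 summit reads per background in place of ranks called 10 regions higher, and that fit was run only with all samples and no block. Replicate numbers did not pair the samples, since deviations of samples with the same number correlated at 0.0030 to 0.0070.

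Per 10000 peaks the difference between MMF and control was -0.0266. It was 0.969 at equal list length (exact permutation test, p = 0.1), 0.0940 at a stricter q and 0.446 with a flank of 50 kb, and it ranged from -0.203 to 0.188 with 1 sample left out, turning positive without control replicate 2 (0.188) and without MMF replicate 1 (0.00840). The number of peaks, 14.3 more with MMF, was 5.67 more at equal list length, 9 more with a flank of 10 kb, 27.3 more with one of 50 kb, and 12.3 to 15.8 more with 1 sample left out. Counting all merged regions, chosen after seeing the data, gave 29 regions higher in every MMF sample in place of 11. That count includes regions called only with MMF, which are higher by construction. With 1 sample left out the 11 became 11 to 14. This count too can only stay or rise when a sample is left out, so it does not show stability. Of the promoters, that of Cd177 turned (-7.03 percentile points) with percentile ranks at equal list length. Promoter means were higher with MMF for 7 genes, and for 5 to 7 under the alternatives. The 7 include Mmp8, whose groups overlapped, and Mmp9 and Lyz1 had no promoter peak. A list with no peak counted as 0, so Ltf, with no control peak, could not come out lower. The share of all gene promoters was not counted in this way. Of shared regions at promoters in general, 4025 had a higher and 7531 a lower mean of log2 summit reads with MMF. Weak peaks rest on few reads, which limits what presence or absence in 1 list can show.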
